A study of Drosophila melanogaster with 36 samples.

Results

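The 10 genes described here encode enzymes of the path from glucose 6-phosphate to pyruvate and lactate, all steps but that of phosphoglycerate mutase: Pgi, Pfk, Ald1, Tpi, Gapdh1, Gapdh2, Pgk, Eno, PyK and Ldh. They were picked by name as members of the glycolytic pathway, with earlier results of these data known, and they are 10 of 13817 genes in the abundance table. Their 42 annotated transcripts were read singly and summed per gene. All 10 genes had a mean abundance of at least 1 TPM (transcripts per 1000000, a share of all transcripts corrected for transcript length), as did 26 of the 42 transcripts. The RNA came from ventral lateral neurons (LNv), clock neurons of the fly brain that make the neuropeptide PDF. They were sorted from female Drosophila melanogaster labelled w1118 in strain and WT in genotype, in which the Pdf promoter drove a membrane GFP (Pdf>mGFP) in every group. Flies of the HC25 group were raised on 1.5x sucrose-yeast food at 25 °C, those of LC25 on 0.5x food at 25 °C, and those of HC18 on 1.5x food at 18 °C. Each group gave 12 libraries, 1 for every 2 h of the day from ZT02 to ZT24 (zeitgeber time in h). The light schedule, the age of the flies and the number of brains in a library are not stated in the labels.

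Glycolysis splits a hexose into a pair of trioses, oxidises them and returns ATP and NADH. Its upper steps spend ATP, with phosphofructokinase as the main point of control, and its lower steps, from glyceraldehyde 3-phosphate dehydrogenase to pyruvate kinase, yield ATP. Lactate dehydrogenase then regenerates NAD+ from pyruvate, and in the nervous system neurons and glia exchange lactate. No library was repeated, so the p-values below measure the scatter of these single libraries around a fitted curve or around time-matched differences, and that scatter may be technical. In sorted RNA, fewer cells that express a gene and less of its RNA per cell cannot be told apart.

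The libraries carried the LNv markers. Pdf itself took 7.68% of all TPM in the HC25 library of ZT06 and 19.3% to 30.1% in the others. The HC25 library of ZT06 also had the lowest tim (27.4 TPM), cry (139 TPM) and Pdfr (15.9 TPM). The markers vri and Clk were not at their lowest there. A small number of libraries stood apart. In HC25 the summed TPM of 8 glia markers was 703 at ZT06 and 1306 at ZT08, against 13.0 to 110 in the other 34 libraries. The glutamine synthetase gene Gs2 made up 681 TPM of the sum at ZT06, whereas at ZT08 the glial genes alrm (183 TPM) and repo (9.92 TPM) were high as well. In HC18 the abundant transcript fmt was at 121 to 1603 TPM at ZT06, ZT08, ZT10 and ZT22, and at 6458 TPM or more in every other library. Those 4 libraries are called the low-fmt libraries below. In LC25 the photoreceptor markers reached 876 TPM at ZT18, against a median of 38.0 over all libraries.

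The 10 genes together made up 0.191% to 0.832% of TPM, with a mean of 0.371% ± 0.134 (SD, n = 36 libraries). Their sum was highest at ZT08 or ZT10 in each group. In HC25 it ran from 0.225% at ZT20 to 0.629% at ZT08, with a median of 0.371%. In LC25 it ran from 0.191% at ZT16 to 0.487% at ZT08, with a median of 0.314%. In HC18 it ran from 0.248% at ZT24 to 0.832% at ZT10, with a median of 0.345%. The HC25 maximum fell in the library with the most glia markers. That library also had the highest summed fat body markers (Yp1, Yp2, Yp3, Lsp2 and Fbp1), 244 TPM against 3.04 to 105 TPM in the others. The HC18 low-fmt libraries held 0.385% to 0.832%, above the 0.248% to 0.383% of the other 8 HC18 libraries, and 3 of the 4 were the consecutive libraries of ZT06, ZT08 and ZT10. The glia markers in those 4 were at 25.4 to 38.8 TPM, within the range of the other 8 HC18 libraries. The part of glia, of fat body and of whatever lowered fmt in these sums was not tested.

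**Figure D1:**
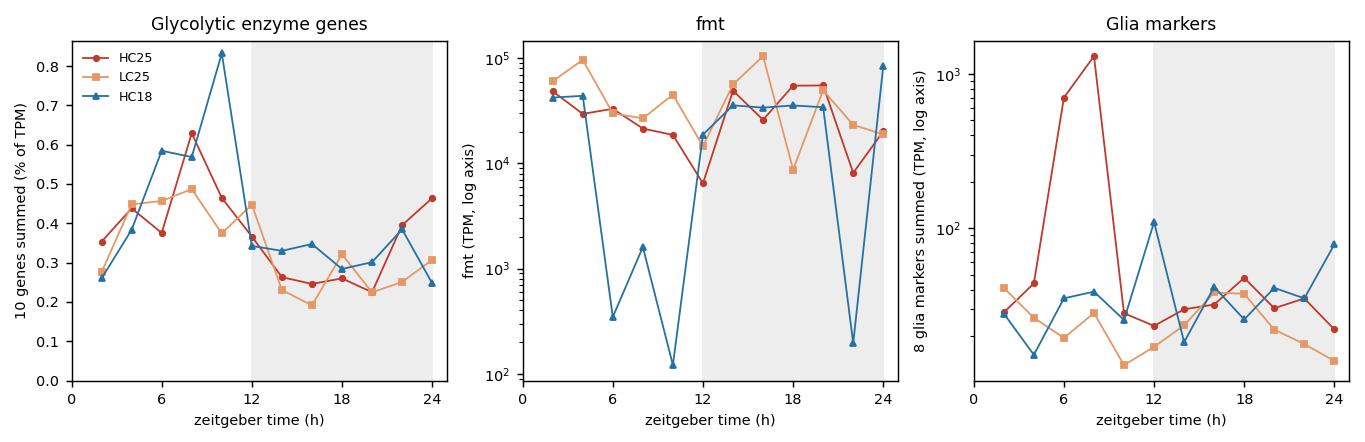
Percent of TPM taken by the 10 glycolytic enzyme genes (left, linear axis), TPM of fmt (middle, log axis) and summed TPM of 8 glia markers (right, log axis) against zeitgeber time, 1 library per point, with grey marking ZT12 to ZT24. The HC18 libraries at ZT06, ZT08, ZT10 and ZT22 are low in fmt, and the first 3 hold the highest summed level of the genes in HC18. The summed glia markers stand out in HC25 at ZT06, mostly through Gs2, and at ZT08.

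TPM is corrected for length, and the levels of the genes were compared on that scale. The RNA had been amplified with T7 RNA polymerase, and the effect of that step on levels between genes or transcripts was not tested. Aldolase was the most abundant and lactate dehydrogenase the least. Ald1 had a mean of 990 ± 504 TPM and stood above Gapdh2 in 35 of 36 libraries, with a mean log2 difference in level of 0.68 ± 0.44. The next 4 genes lay close together, at 581 ± 168 TPM for Gapdh2, 523 ± 165 for Eno, 477 ± 143 for Gapdh1 and 447 ± 197 for PyK (SD, n = 36 each). Each of these neighbours differed from the next by less than the spread (SD) of their log2 difference between libraries. Gapdh2 was above Eno in 29 of 36 libraries, Eno above Gapdh1 in 25 and Gapdh1 above PyK in 20. PyK was above Tpi in all 36 libraries. Tpi (201 ± 92.1 TPM) and Pgk (191 ± 108) did not differ beyond that spread, nor did Pgk and Pgi (140 ± 59.5), nor Pgi and Pfk (120 ± 35.2). The first gene of each pair was higher in 23, 30 and 22 of 36 libraries. That spread describes single libraries and is no test of the mean difference. Ldh, at 41.4 ± 42.8 TPM, was below Pfk in 34 of 36 libraries and was the only member whose SD exceeded its mean.

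A daily rhythm was called in all but 1 of the genes. A 24 h cosine curve common to the 3 groups was fitted to log2(TPM + 1) of every gene, with limma's moderated F test and Benjamini-Hochberg adjustment over 8649 genes. A gene was called rhythmic at an adjusted p below 0.05. Of the 10 members 9 were called, and Pfk was not, against 23.9% of all genes tested. The 9 had fitted peaks from ZT4.16 to ZT8.98. Of all 2065 rhythmic genes, 418 (20.2%) peaked between ZT4 and ZT9. That window spans the peaks of the 9 members themselves, so the share is a description and no test of grouping. The median 24 h amplitude was 0.54 (log2) over the 10 members and 0.20 over all genes tested. Every one of the 9 was called in each of 11 alternative fits and with any single library left out.

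Pgi (FBgn0003074, chromosome arm 2R), glucose-6-phosphate isomerase, makes fructose 6-phosphate at the entry of the pathway. In HC25 its level ran from 65.2 TPM at ZT16 to 235 TPM at ZT04, with a median of 151. In LC25 it ran from 66.2 TPM at ZT16 to 194 TPM at ZT04, with a median of 120. In HC18 it ran from 95.5 TPM at ZT14 to 277 TPM at ZT10, with a median of 120. The 3 groups overlapped, and each was low at ZT14 to ZT16 and highest at ZT04 or ZT10. The common curve gave a trough-to-peak change of 2.51-fold with a peak at ZT6.01 ± 0.48 h (SE; limma, adjusted p = 2.4e-07).

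Pfk (FBgn0003071, 2R), phosphofructokinase, commits the sugar to glycolysis. It ran from 84.8 TPM at ZT12 to 211 TPM at ZT22 in HC25, with a median of 125. It ran from 77.3 TPM at ZT16 to 185 TPM at ZT18 in LC25, with a median of 119, and the ZT18 library is the one with the photoreceptor markers. In HC18 it ran from 66.4 TPM at ZT14 to 162 TPM at ZT10, with a median of 96.0. The highest libraries therefore came at a different time in each group. The common curve had a 1.37-fold change and a peak at ZT1.84 ± 1.43 h, and it did not pass (limma, adjusted p = 0.112; 0.000703 to 0.167 over the alternatives, of which 5 called it). Leaving out the HC18 library of ZT10 also brought it past the threshold (adjusted p = 0.0479).

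Ald1 (FBgn0000064, 3R), the aldolase that cleaves fructose 1,6-bisphosphate, ran from 455 TPM at ZT20 to 2375 TPM at ZT08 in HC25, with a median of 845. In LC25 it ran from 436 TPM at ZT16 to 1447 TPM at ZT08, with a median of 663. In HC18 it ran from 705 TPM at ZT02 to 2741 TPM at ZT10, with a median of 992. The single highest libraries were the glia-rich HC25 library and a low-fmt HC18 library. The highest LC25 library was that of ZT08, with 28.2 TPM of glia markers and 26798 TPM of fmt. The part of glia, fat body and fmt in these highs was not tested. The common change was 2.48-fold with a peak at ZT7.42 ± 0.52 h (limma, adjusted p = 1.4e-06).

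Tpi (FBgn0086355, 3R), triosephosphate isomerase, interconverts the trioses that aldolase releases. Its level was 117 to 326 TPM in HC25 (lowest at ZT18, highest at ZT08, median 228), 90.2 to 294 TPM in LC25 (ZT16 and ZT08, median 159) and 108 to 497 TPM in HC18 (ZT02 and ZT10, median 170). The daily highs of the 3 groups fell within 2 h of each other. The common change was 2.27-fold with a peak at ZT7.61 ± 0.64 h (limma, adjusted p = 5.3e-05).

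**Figure D2:**
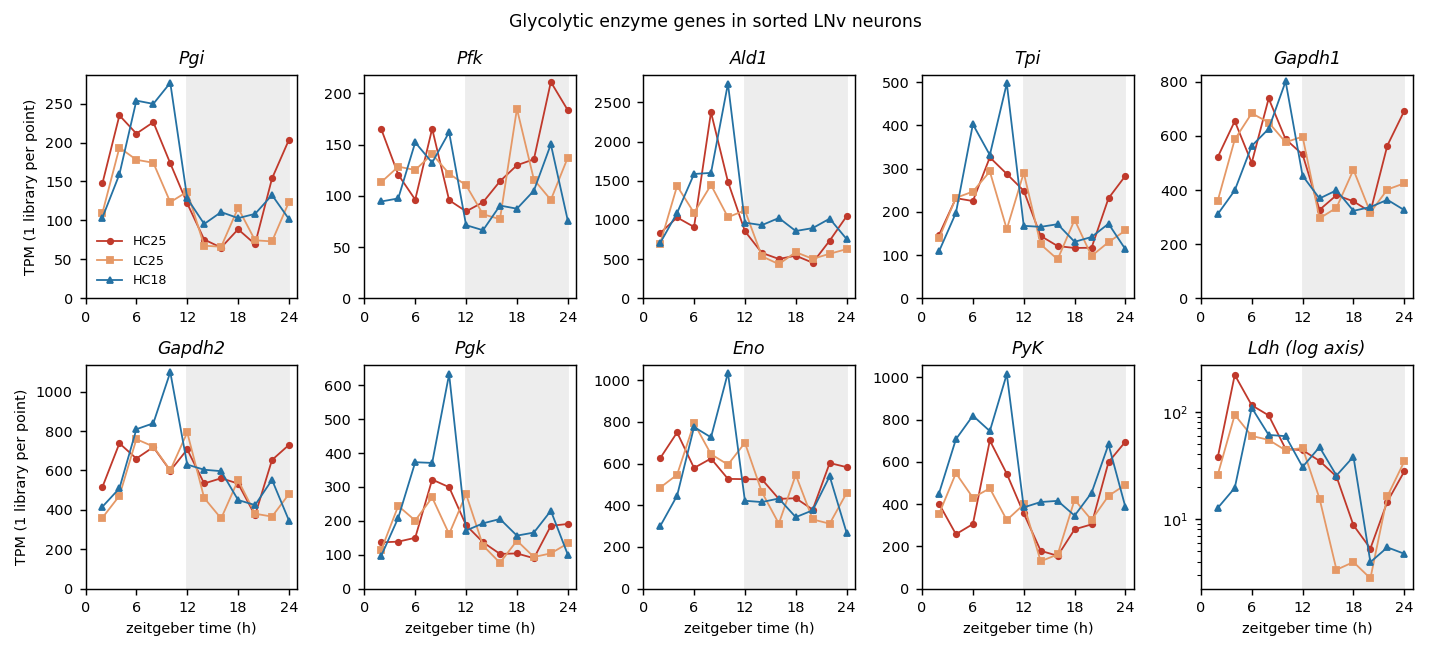
TPM of the 10 glycolytic enzyme genes, in pathway order, against zeitgeber time in HC25, LC25 and HC18, 1 library per point (Ldh on a log axis, the others on linear axes from 0, grey from ZT12 to ZT24). All but Pfk are on average higher at ZT4 to ZT12 than at ZT14 to ZT20 in each group, and the HC18 library of ZT10 is the highest point of 8 genes.

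Gapdh1 (FBgn0001091, 2R) and Gapdh2 (FBgn0001092, X) both encode glyceraldehyde 3-phosphate dehydrogenase, the step that makes NADH. The copies are similar in sequence, so reads may have been divided between them with error. Gapdh1 ran from 319 to 738 TPM in HC25 (ZT20 and ZT08, median 527), from 296 to 684 TPM in LC25 (ZT14 and ZT06, median 450) and from 311 to 802 TPM in HC18 (ZT02 and ZT10, median 384). Gapdh2 ran from 372 to 738 TPM in HC25 (ZT20 and ZT04, median 626), from 356 to 793 TPM in LC25 (ZT16 and ZT12, median 476) and from 346 to 1100 TPM in HC18 (ZT24 and ZT10, median 575). Both were low at ZT20 in HC25 and high at ZT10 in HC18, and the groups overlapped. Gapdh1 changed 1.77-fold with a peak at ZT7.15 ± 0.66 h and Gapdh2 1.70-fold with a peak at ZT8.98 ± 0.70 h (limma, adjusted p = 0.00010 and 0.00025). Gapdh1 made up 37.9% to 55.5% of the pair, 45.0% ± 4.30 on average (SD, n = 36). Its mean share was 45.3% in HC25, 47.6% in LC25 and 42.2% in HC18. Whether the share differs between the groups was not tested.

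Pgk (FBgn0250906, 2L), phosphoglycerate kinase, makes the first ATP of the lower pathway. It ran from 89.6 TPM at ZT20 to 322 TPM at ZT08 in HC25 (median 144), from 75.9 TPM at ZT16 to 279 TPM at ZT12 in LC25 (median 137), and from 97.0 TPM at ZT02 to 633 TPM at ZT10 in HC18 (median 199). The HC18 library of ZT10 was far above every other value. The common change was 2.32-fold with a peak at ZT8.38 ± 0.69 h (limma, adjusted p = 0.00019). Eno (FBgn0000579, 2L), enolase, makes phosphoenolpyruvate. It ran from 379 to 749 TPM in HC25 (ZT20 and ZT04, median 553), from 311 to 794 TPM in LC25 (ZT22 and ZT06, median 515) and from 267 to 1036 TPM in HC18 (ZT24 and ZT10, median 427). Its range was the widest in HC18, at both ends. The common change was 1.76-fold with a peak at ZT7.72 ± 0.75 h (limma, adjusted p = 0.00058).

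PyK (FBgn0267385, 3R), pyruvate kinase, closes the pathway and makes its last ATP. In HC25 it ran from 155 TPM at ZT16 to 701 TPM at ZT08, with a median of 331. In LC25 it ran from 129 TPM at ZT14 to 546 TPM at ZT04, with a median of 409. In HC18 it ran from 345 TPM at ZT18 to 1016 TPM at ZT10, with a median of 452. PyK had the earliest fitted peak of the 9 called genes, ZT4.16 ± 0.92 h, with a 1.96-fold change (limma, adjusted p = 0.0065). In HC25 and HC18 it was high at ZT08 to ZT10 and again at ZT22, and low in between. A 12 h component, a test added after the profiles had been seen, was called in PyK alone of the members, against 1.41% of all genes. Its amplitude was 0.44 ± 0.095 (log2), with peaks at ZT9.26 ± 0.41 h and 12 h later (limma, adjusted p = 0.0223). It did not pass without the HC18 library of ZT10 (0.0510), the HC25 library of ZT04 (0.0527) or that of ZT22 (0.0536), nor without the 4 low-fmt libraries.

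Ldh (FBgn0001258, 3L), lactate dehydrogenase, had by far the largest daily change of the 10. In HC25 it ran from 5.31 TPM at ZT20 to 221 TPM at ZT04, with a median of 36.3. In LC25 it ran from 2.80 TPM at ZT20 to 93.8 TPM at ZT04, with a median of 30.3. In HC18 it ran from 3.97 TPM at ZT20 to 109 TPM at ZT06, with a median of 28.1. The lowest library was the one of ZT20 in each group, and the highest was that of ZT04 or ZT06. The highest library exceeded the lowest 41.6-fold in HC25. In LC25 that ratio was 33.5 and in HC18 27.5. The fitted change of the common curve was 9.92-fold on the log2(TPM + 1) scale, which understates changes of low genes, with a peak at ZT7.56 ± 0.45 h (limma, adjusted p = 6.7e-08). Over the alternatives it stayed between 9.19-fold and 11.4-fold.

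The peaks did not follow the order of the reactions. Ald1, Tpi, Gapdh1, Eno and Ldh had common peaks within ZT7.15 to ZT7.72, with standard errors of 0.45 to 0.75 h. Pgi and PyK, at the opposite ends of the pathway, peaked earlier, and Pgk and Gapdh2 later. Over the 36 libraries the profiles of Ald1 and Pgk were the most alike of the 45 pairs (Pearson r = 0.926 on log2(TPM + 1)), followed by Tpi and Pgk (0.920). The least alike pairs were Pfk and Ldh (0.0851) and PyK and Ldh (0.231). These correlations share the libraries and their composition and are given as a description only. In the authors' deposited table of rhythm tests over all 36 libraries, 9 members had a Benjamini-Hochberg adjusted p below 0.05 and Pfk had 0.197. The mean phases in the authors' deposited table gave another order, with Ldh the earliest of the 9 at 5.20 h and PyK at 8 h. For Ldh the authors' deposited table gave an adjusted p of 9.42e-06 over all libraries and 0.000846 at 25 °C. At 25 °C the values in the authors' deposited table were 0.0852 for Pfk, 0.202 for Gapdh2 and 0.210 for PyK, and the other 7 members were below 0.05.

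The curves were then fitted separately for each group in a single model. In HC25 4 members were called rhythmic, Pgi, Ald1, Gapdh1 and Ldh, against 8.45% of all genes. In LC25 the 6 called were Pgi, Ald1, Gapdh1, Gapdh2, Eno and Ldh, against 6.14% of all genes. In HC18 the 6 called were Pgi, Tpi, Gapdh1, Gapdh2, Eno and Ldh, against 5.52%. Pgi, Gapdh1 and Ldh were thus called in every group, and Pfk, Pgk and PyK in none (Pgk had adjusted p values of 0.190, 0.0952 and 0.0579 in HC25, LC25 and HC18). A gene called in some groups and not in others is not thereby shown to differ between them. Median amplitudes over the 10 members were 0.51 in HC25, 0.58 in LC25 and 0.54 in HC18, beside 0.28, 0.26 and 0.23 over all genes.

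The HC18 calls rested on few libraries. Without the 4 low-fmt libraries no member passed in HC18 in limma, where 2 (Ldh and Gapdh2) had an unadjusted p below 0.05. Ldh then had a 6.89-fold change with a peak at ZT11.0 (adjusted p = 0.0652) and Gapdh2 a 1.80-fold change (adjusted p = 0.261). Leaving out the single library of ZT10 left 1 called member, leaving out that of ZT06 or ZT08 left 2, and leaving out that of ZT18 left 4, whereas 8 passed without the HC18 library of ZT12 or the HC25 library of ZT06. Ldh passed with any single library left out. In LC25 the calls of Gapdh1, Gapdh2 and Eno lay just under the threshold, at adjusted p values of 0.0471, 0.0498 and 0.0498. They held in 16, 10 and 8 of the 36 fits with a library left out. In HC25 Gapdh1 lost its call without any one of 6 HC25 libraries (ZT04, ZT08, ZT14, ZT16, ZT18 or ZT20; adjusted p of 0.0657 to 0.0943). The 24 h changes of Pgi, Ald1 and Ldh at 25 °C passed in each of these fits. The HC25 count was 4 without the library of ZT06, which was high in Gs2, and 3 with the glia markers as a further term. It was also 4 without the glia-rich library of ZT08, where Pfk (limma, adjusted p = 0.0339) took the place of Gapdh1 (0.0765).

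The fitted peaks of the members were later in the cold, but no such difference passed the test across all genes. The peak came later in HC18 than in HC25 for all 10 genes, by 1.99 h in Pgk to 5.59 h in Pfk. Pfk was called rhythmic in no group, and its shift was -0.92 h without the low-fmt libraries. Among the 9 genes with a common rhythm the median shift was 3.05 h, beside 0.60 h over the 2065 rhythmic genes, of which 59.9% had a later peak in HC18. For Ldh the fitted peak was at ZT6.82 ± 0.60 h in HC25 and ZT10.0 ± 0.63 h in HC18, a difference of 3.19 ± 0.87 h. For Gapdh1 it was at ZT4.98 and ZT9.09, 4.11 ± 1.38 h apart, and for Pgi at ZT4.86 and ZT7.58, 2.72 ± 1.05 h apart. The Ldh libraries differed on both flanks of the curve. At ZT04 Ldh was at 221 TPM in HC25 and 19.5 TPM in HC18. In the same order its values were 8.76 and 38.2 TPM at ZT18, and 27.8 and 4.75 TPM at ZT24.

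The test of the difference in rhythm between HC18 and HC25 called no member and no gene (0% of 8649) in limma after adjustment, with all members at 0.994. At an unadjusted p below 0.05 it gave 5 members, Ldh (p = 0.0044), Gapdh1 (0.0251), Pgi (0.0252), Gapdh2 (0.0401) and Eno (0.0425), against 3.65% of all genes. The members move together across libraries, so these are not 5 separate observations. The number of members was 2 to 7 over the alternatives. All 9 shifts stayed later in HC18 in each of 9 alternatives, with medians from 2.34 to 4.16 h, and with any single library left out. Without the low-fmt libraries the median was 4.16 h, although no HC18 curve of a member then passed.

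No difference in timing between the foods passed. Peaks in LC25 came later than in HC25 in 7 of the 9 rhythmic members and in 35.4% of all rhythmic genes, with medians of 0.89 h and -0.68 h. Shifts ran from -0.60 ± 0.81 h for Ldh to 3.16 ± 1.93 h for Eno, each within about 2 standard errors. The test of the difference in rhythm called 0 members and 0% of genes after adjustment. At an unadjusted p below 0.05 it called 0 members as well, against 4.1% of all genes. The comparisons of LC25 and of HC18 share the HC25 libraries, so their results are not independent of each other.

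**Figure D3:**
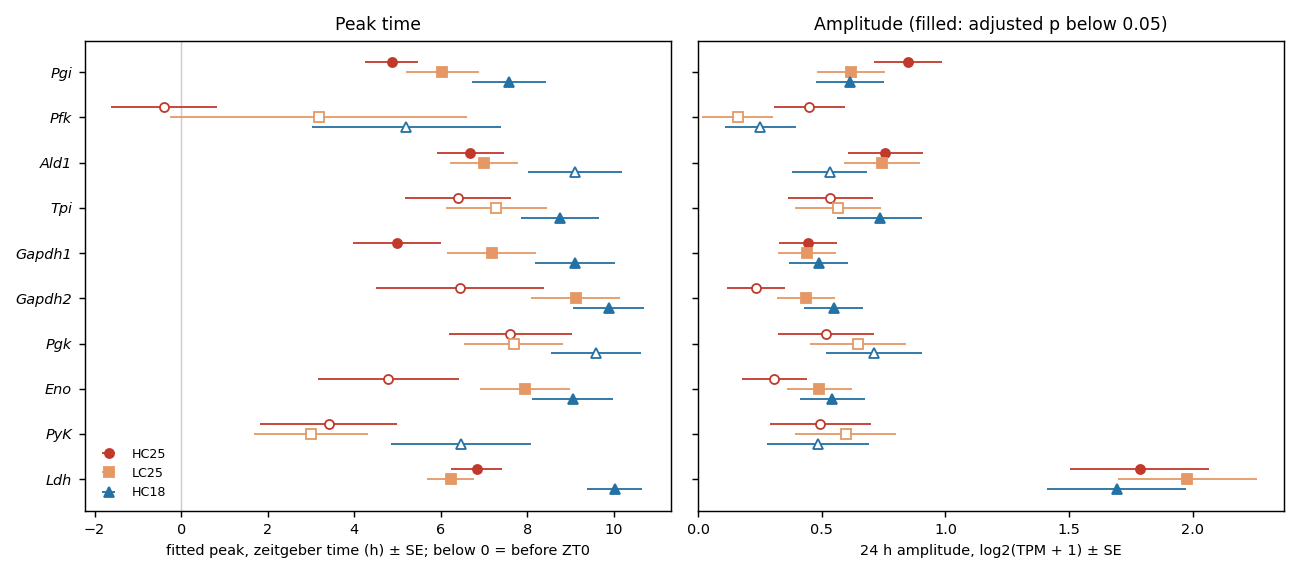
Fitted peak time (left, zeitgeber time in h, ± SE) and 24 h amplitude (right, log2(TPM + 1), ± SE) of each gene in HC25, LC25 and HC18, from 12 libraries per group, with filled symbols for an adjusted p below 0.05 in limma. In every gene the HC18 peak lies later than the HC25 peak, and Ldh has the largest amplitude in all groups.

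Mean levels over the day were compared by time-matched differences, with time point as a factor in limma. On the poorer food all 10 members had a negative estimate, but none passed. The estimates ran from -0.04 ± 0.17 (log2) for PyK to -0.70 ± 0.35 for Ldh, with a median of -0.13 beside -0.03 over all genes. After adjustment 0 members and 0% of all genes were called. At an unadjusted p below 0.05 there was 1 member, Gapdh2 (0.840-fold, p = 0.0470), against 5.24% of all genes. Ldh stood at 0.618-fold in LC25 and was lower than in HC25 at 9 of 12 times, with a mean of 33.4 ± 27.7 TPM against 56.0 ± 61.3 TPM (SD, n = 12 each). Its adjusted p was 0.947 and its unadjusted p 0.0535. The HC25 library of ZT04, with 221 TPM, was more than double any LC25 library. A failure to pass does not show that the food left these genes at the same level.

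In the cold the estimates had both signs. PyK was the 1 member called between HC18 and HC25, against 8.22% of all genes. It was higher in HC18 at 11 of 12 times, with 568 ± 217 TPM against 398 ± 191 TPM (SD, n = 12 each). The difference was 0.58 ± 0.17 (log2), or 1.49-fold (limma, adjusted p = 0.0317). This call was near the threshold. The adjusted p was 0.0562 without the HC25 library of ZT06, 0.0610 with the glia markers as a further term and 0.245 without the 4 low-fmt libraries, and over all alternatives it ran from 0.0090 to 0.245, while the fold stayed at 1.39 to 1.60. With single libraries left out the call was lost in 11 of 36 fits, those without HC18 ZT04, ZT06, ZT10, ZT14 or ZT16 or without HC25 ZT04, ZT06, ZT14, ZT16, ZT18 or ZT20 (adjusted p of 0.0520 to 0.0752).

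Of the other members, Pgk (0.41 ± 0.18, log2) and Ald1 (0.37 ± 0.14) had positive estimates and were higher at 9 of 12 times each. Their adjusted p values were 0.148 and 0.0954 in limma. Ald1 passed without the HC25 library of ZT08 (0.0465) or of ZT24 (0.0411), and without HC25 ZT06, HC25 ZT08 and HC18 ZT24 together (1.38-fold, 0.0342). Ldh (-0.60 ± 0.35), Pfk (-0.31 ± 0.14), Gapdh1 (-0.24 ± 0.11) and Eno (-0.21 ± 0.15) had negative estimates, with Pfk lower at 10 of 12 times, and none passed (adjusted p of 0.165 to 0.397). Pfk passed under median-ratio scaling (0.0214), under quantile normalization (0.0350) and without the low-fmt libraries (0.68-fold, 0.0477), and Gapdh1 under median-ratio scaling (0.0353). Pgi, Tpi and Gapdh2 had estimates of 0.07 or less in size. The median over the 10 members was -0.04, beside 0.04 over all genes.

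**Figure D4:**
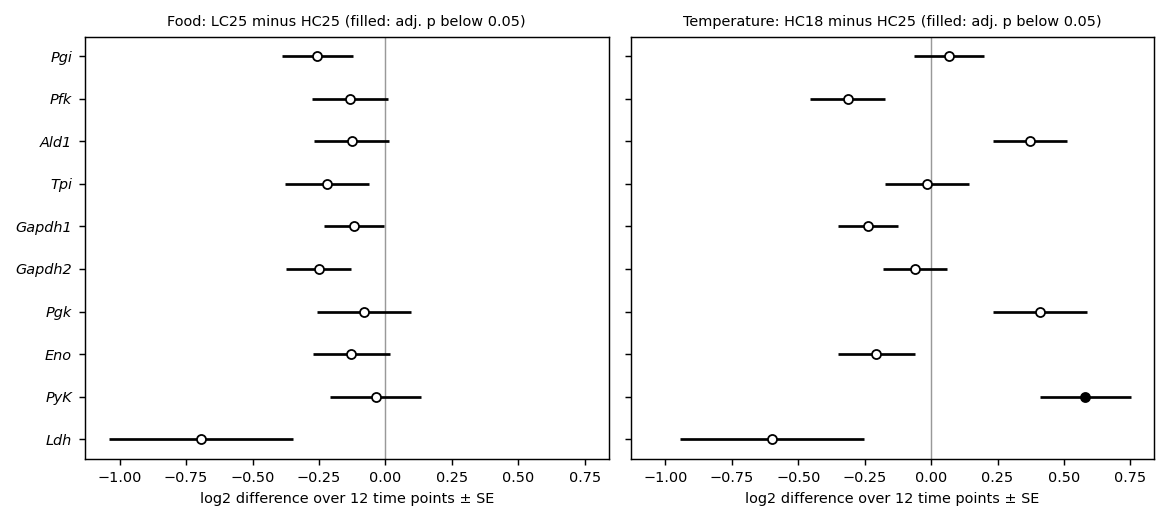
Log2 difference in level over 12 time-matched pairs of libraries, ± SE, for LC25 minus HC25 (left) and HC18 minus HC25 (right), with filled symbols for an adjusted p below 0.05 in limma. All 10 food estimates lie below 0 and none is called, while the temperature estimates lie on both sides of 0 and PyK alone is called.

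At the level of transcripts, 10 of the 26 member transcripts tested were rhythmic in the common fit, against 13.4% of 14167 transcripts. In 7 genes a single transcript held 95.5% or more of the gene on average: Pgi-RC, Pfk-RB, Tpi-RB, Gapdh1-RB, Gapdh2-RC, Pgk-RA and Ldh-RB. These 7 behaved as the gene did, and all but Pfk-RB were called. The other 4 called transcripts were Ald1-RB, Eno-RE, PyK-RA and PyK-RB. The further transcripts with a mean TPM of at least 1 that are not described here (Ald1-RD, RE, RH, RI, RJ, RK and RM, Eno-RF, Gapdh2-RA, Pfk-RE, Pgi-RB, Pgk-RE and Tpi-RC) had mean levels of 1.07 to 9.16 TPM, and 0 of these 13 was called in any of the transcript tests.

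Ald1 was divided between 2 transcripts that encode the same protein of 361 residues in the Ensembl annotation but differ in length. Ald1-RB, of 2636 nt, held 60.7% of the gene on average, and Ald1-RC, of 1279 nt, held 37.1%. The 2 transcripts share their coding sequence, so reads may have been divided between them with error. Ald1-RB ran from 369 to 972 TPM in HC25, from 293 to 1082 TPM in LC25 and from 237 to 645 TPM in HC18. Ald1-RC ran from 0 to 1839 TPM in HC25, from 0 to 816 TPM in LC25 and from 299 to 2211 TPM in HC18. The high Ald1 values at HC25 ZT08 and HC18 ZT10 were therefore mostly Ald1-RC, which took 77.4% and 80.7% of the gene in those libraries. Ald1-RB had a 2.13-fold daily change with a peak at ZT7.41, and Ald1-RC was not called (limma, adjusted p = 0.830).

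The estimated level of Ald1-RC was higher in the cold. Ald1-RB held 71.0% ± 24.1 of the gene in the HC25 libraries and 70.9% ± 19.4 of it in those of LC25 (SD, n = 12 each). In HC18 it held 40.3% ± 13.4. Its share was 66.8% or less in every HC18 library, and groups overlapped. Ald1-RC was higher in HC18 than in HC25 at 10 of 12 times, 8.55-fold on the log2(TPM + 1) scale (log2 3.10 ± 0.75, limma, adjusted p = 0.0183), against 4.76% of all transcripts called. Its mean was 336 ± 541 TPM in HC25 and 732 ± 521 TPM in HC18 (SD, n = 12 each). Ald1-RC was listed at 0 in 2 of the 25 °C libraries, so the size of the 8.55-fold difference depends on the pseudocount. With a pseudocount of 0.1 the difference was 10.8-fold. Ald1-RB had 0.750-fold the level in HC18 (adjusted p = 0.0502), lower at 9 of 12 times. Without the low-fmt libraries Ald1-RC was 7.66-fold higher with an adjusted p of 0.0819. On the poorer food 0% of all transcripts, and none of the members, were called.

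Eno-RE, of 2664 nt, encodes 500 residues and held 91.1% of enolase on average. Eno-RA, of 1754 nt, encodes 433 residues and was listed at 0 in 19 libraries. Eno-RE ran from 363 to 747 TPM in HC25, from 310 to 792 TPM in LC25 and from 263 to 560 TPM in HC18, and it was rhythmic (1.54-fold, peak at ZT7.60, limma, adjusted p = 0.0064, and 0.0581 without the low-fmt libraries). Eno-RA reached 258 TPM in HC25, at ZT08, 126 TPM in LC25, at ZT04, and 594 TPM in HC18, at ZT10. In the low-fmt HC18 library of ZT10 Eno-RA held 57.3% of the gene, while Eno-RE was lower there (439 TPM) than at ZT06 (560 TPM). Eno-RA was next highest in HC18 at ZT22 (229 TPM, 42.4% of the gene), also a low-fmt library. The HC25 library of ZT08, where Eno-RA held 41.4%, is the glia-rich one. Reads may have been divided between Eno-RA and Eno-RE with error. Eno-RE was lower in HC18 than in HC25 at 10 of 12 times, 0.731-fold (log2 -0.45 ± 0.13, limma, adjusted p = 0.0426, and 0.119 without the low-fmt libraries). Eno-RA had a higher estimate in HC18 that did not pass in limma (adjusted p = 0.164, and 0.0456 without HC25 ZT06, HC25 ZT08 and HC18 ZT24).

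PyK-RB (512 residues) held 67.1% of pyruvate kinase and PyK-RA (533 residues) 32.9%. Both were called rhythmic, PyK-RB with a 2.11-fold change and a peak at ZT5.54 (limma, adjusted p = 0.0327) and PyK-RA with a 2.24-fold change and a peak at ZT1.70 (0.0479). Whether these peaks differ was not tested. PyK-RA ran from 33.1 to 239 TPM in HC25, from 22.9 to 210 TPM in LC25 and from 88.0 to 364 TPM in HC18, and its share of the gene was between 8.28% and 58.7%. The PyK-RB call was also lost without HC25 ZT06, HC25 ZT08 and HC18 ZT24 (limma, adjusted p = 0.0542). Neither call held without the low-fmt libraries (0.109 for PyK-RB and 0.0646 for PyK-RA).

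**Figure D5:**
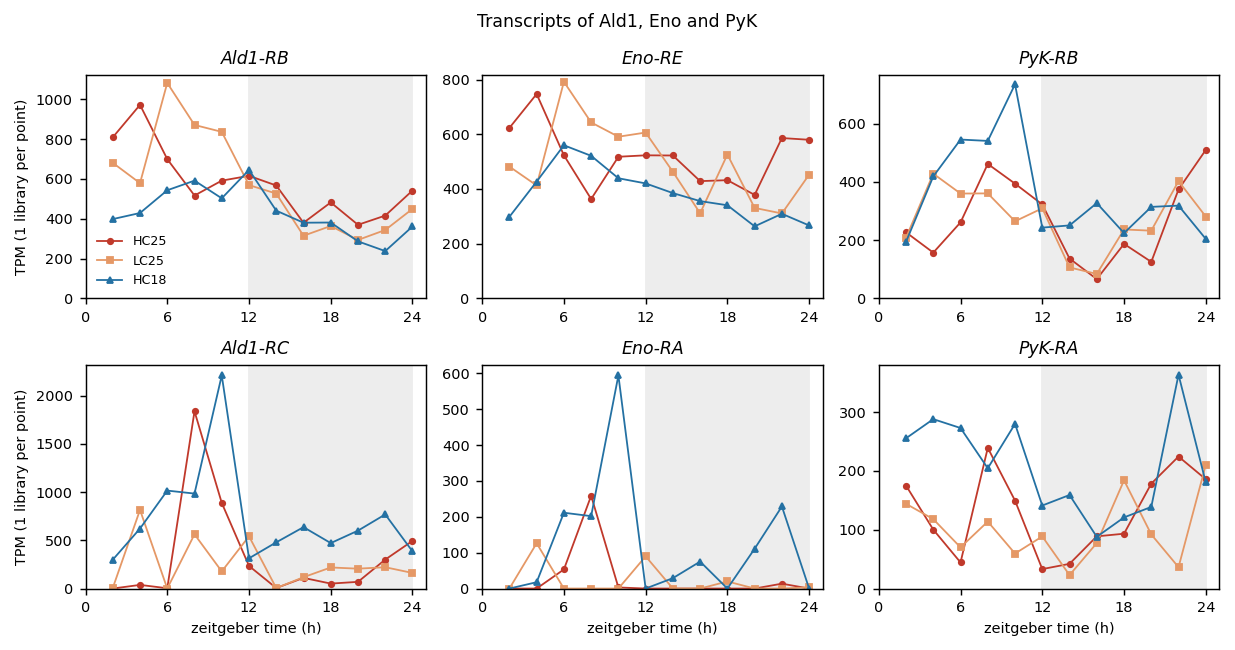
TPM of the main transcripts of Ald1, Eno and PyK against zeitgeber time in HC25, LC25 and HC18, 1 library per point, linear axes from 0, grey from ZT12 to ZT24. Ald1-RC and Eno-RA spike together at HC25 ZT08 and HC18 ZT10, where Ald1-RB and Eno-RE do not.

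The neighbouring enzymes were partly rhythmic. From a list of 18 further enzymes and relatives (hexokinases, phosphoglycerate mutases, pyruvate kinase paralogs and gluconeogenic or glycerol-phosphate enzymes), 9 reached a mean of 1 TPM and 4 of the 9 were called in the common fit, against 23.9% of all genes. Gpdh1, the cytosolic glycerol 3-phosphate dehydrogenase, had a 2.05-fold change and a peak at ZT2.86. The low pyruvate kinase paralogs CG7069 (2.32-fold, ZT23.1) and CG12229 (2.01-fold, ZT17.0) had late peaks, and Pepck2, a phosphoenolpyruvate carboxykinase, at ZT8.25 (2.21-fold). The hexokinase gene Hex-A (129 ± 44.5 TPM) and the mutase gene Pglym78 (318 ± 95.8 TPM), which supply the missing steps of the pathway, were not called (limma, adjusted p = 0.0636 and 0.0909). Hex-A passed in 3 of 12 fits and Pglym78 in 4 of 12. The genes Hex-C, Hex-t1, Hex-t2, Pglym87 and Ald2 were below a mean of 1 TPM.

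Genes for the fate of pyruvate and lactate were called rhythmic in 9 of 13 cases, against 23.9% of all genes. Their peaks were spread over the day. Got1, the cytosolic aspartate aminotransferase, changed 3.71-fold with a peak at ZT6.51, and kdn, citrate synthase, 2.38-fold with a peak at ZT4.32. Both were called in each group. The cytosolic malate dehydrogenase Mdh1 (1.82-fold, ZT7.54), the mitochondrial transaminase Got2 (1.71-fold, ZT7.68) and the monocarboxylate transporter chk (1.82-fold, ZT6.11) also peaked between ZT6 and ZT8. Mct1, a monocarboxylate transporter, peaked later than any of the 9 rhythmic members.

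Mct1 was at 2.62 TPM at ZT06 and 70.0 TPM at ZT14 in HC25, its lowest and highest values there, and ran from 6.51 TPM at ZT06 to 70.8 TPM at ZT14 in LC25 and from 10.9 TPM at ZT02 to 106 TPM at ZT16 in HC18. Its common change was 8.93-fold with a peak at ZT16.3 (limma, adjusted p = 5.0e-12). It was called in each group, with peaks at ZT16.6 in HC25, ZT16.0 in LC25 and ZT16.5 in HC18. The other genes with peaks after ZT12 were Mdh2, the mitochondrial malate dehydrogenase (1.53-fold, ZT22.4), Mpc1, a mitochondrial pyruvate carrier (1.36-fold, ZT20.5), and hrm, a monocarboxylate transporter (1.39-fold, ZT15.3, called in 8 of 12 fits). A 12 h component was called in 1 of these 13 genes, Mdh2 (1.48-fold, limma, adjusted p = 0.0329), against 1.41% of all genes. It was also called in 1 of the 9 further enzymes, Gpo1, the mitochondrial glycerol 3-phosphate oxidase (1.65-fold, 0.0441), and in 0 of the 8 regulator genes below.

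Between HC18 and HC25 the further enzymes had 1 call among 9 genes tested and the genes of pyruvate and lactate fate 2 among 13. The regulator genes had 0 among 8. These counts were near the 8.22% of all genes. Mct1 was 1.53-fold higher in HC18, at 10 of 12 times (limma, adjusted p = 0.0218), kdn 0.704-fold (0.0118) and CG7069 0.529-fold (0.0042). None of the 3 passed without the low-fmt libraries (0.167, 0.243 and 0.0789) or without time point as a factor (0.508, 0.177 and 0.0909). The list of regulators linked to glycolytic genes held transcription factors and Hph, a prolyl hydroxylase of the hypoxia pathway. Of its 8 genes tested, 4 were called rhythmic, against 23.9% of all genes. Mondo, a sugar-responsive factor, changed 2.91-fold (ZT9.63) and crc, the fly ATF4, 1.46-fold (ZT7.70). Hph changed 1.52-fold (ZT11.0) and sima, the fly hypoxia-inducible factor alpha, 1.38-fold (ZT6.22). Hph passed in 7 of 12 fits and sima in 5 of 12. ERR, the estrogen-related receptor known from fly larvae as an activator of glycolytic genes, was at 12.7 ± 3.99 TPM (SD, n = 36) and was not called (limma, adjusted p = 0.299).

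Among 5273 other genes with a mean of at least 10 TPM, the profile most like that of Ldh over the 36 libraries was that of CG42808 (Pearson r = 0.798 on log2(TPM + 1)), followed by CG31675 (0.796), CG31705 (0.794), DIP-gamma (0.793) and KdelR (0.793). The mean standardised profile of the 10 members was most like Inos (0.892), AGBE (0.882), Got1 (0.848), Pglym78 (0.831) and Pgm1 (0.818). Inos encodes the synthase of inositol 3-phosphate from glucose 6-phosphate, AGBE a glycogen branching enzyme and Pgm1 a phosphoglucomutase. Inos changed 2.12-fold with a peak at ZT7.07, AGBE 2.32-fold with a peak at ZT6.87 and Pgm1 2.20-fold with a peak at ZT6.73.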

How the data were processed

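RNA from FACS-sorted LNv cells was amplified with T7 RNA polymerase, per the labels' protocols. The authors deposited TPM values per transcript, made with kallisto per the submitters' processing notes; no version, genome build, annotation or strand setting is given in the sources used here. The TPM sum to 1000000 in each library, so depth is unknown and no counting interval can be given. The authors also deposited a table of rhythm tests, per the file headers with a rhythm score (TauMean), a phase and p-values from BooteJTK, of which the adjusted p-values are quoted as theirs. Group codes were read with the growth protocol: only the richer food was used at 18 °C.

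Transcripts were summed per gene by transcript ID in the Ensembl annotation (30246 of 30485 matched, and the 239 not matched took 0.139% of TPM). limma 3.58.1 in R 4.3.3 was run on log2(TPM + 1) of the 8649 genes or 14167 transcripts with a mean TPM of at least 1, with Benjamini-Hochberg adjustment over all of them and a threshold of 0.05. Fits used 24 h cosine and sine terms with a mean per group (common, per group, or their difference), or group with time point as a factor. The steps were tested on simulated data. The members, the lists of related genes and markers, and the alternatives were chosen with earlier results of these data known. Text names all members and their transcripts, related genes called in a fit, and the 5 most similar profiles; other related genes named were chosen after their values were seen. The list names Mpc2 and Alat matched no gene and sug was under 1 TPM. No sequence or promoter was analysed here.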

Additional observations from a re-analysis of the deposited data

How the results depend on the processing

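Of the 10 genes, 9 or 10 were rhythmic in the common fit under every alternative and with any library left out. The labels give no replicate numbers, so level comparisons were paired by time point, and the fit without that pairing is given below. Counts in single groups moved more. In HC25 4 genes became 10 under median-ratio scaling and 7 under quantile normalization. In LC25 6 became 3 with the glia markers as a term, without the filter on low genes, without the variance trend, or after rescaling without Pdf and mitochondrial genes, and 3 to 7 with single libraries left out. In HC18 6 became 0 without the low-fmt libraries and 1 to 8 with single libraries left out. The count at 18 °C of 1 (PyK) became 0 with the glia markers, without the filter, without time point as a factor (no replicate block; PyK adjusted p = 0.159), without the trend, after rescaling without Pdf and mitochondrial genes, and without the HC25 library of ZT06. It became 3 under median-ratio scaling, 2 under quantile normalization, 2 without 3 outlying libraries (HC25 ZT06, HC25 ZT08 and HC18 ZT24), and 0 to 2 with single libraries left out. Without the low-fmt libraries it was 1, which was Pfk in place of PyK. Over all genes 512 were higher and 199 lower at 18 °C, but 557 and 515 under median-ratio scaling and 594 and 449 under quantile normalization, 299 and 123 without time point as a factor, 294 and 146 after rescaling, 483 and 492 without the 3 outlying libraries, 393 and 371 without the HC25 library of ZT06, and 71 and 67 without the low-fmt libraries. The 12 h count of 1 became 0 without the low-fmt libraries and 0 to 1 with single libraries left out. The 2 transcripts called at 18 °C became 4 without the 3 outlying libraries and 0 without the low-fmt libraries. The cause of these moves was not tested.

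Estimates that changed sign were all of genes or transcripts that did not pass. At 18 °C Pgi became -0.0040 (log2) under median-ratio scaling and -0.078 without the low-fmt libraries, and Tpi 0.015 without the 3 libraries. On the poorer food PyK became 0.0057 under quantile normalization and 0.0022 after rescaling. Of transcripts at 18 °C, the values without the 3 libraries were -0.069 for Ald1-RD, -0.068 for Ald1-RK, 0.31 for Ald1-RM and 0.035 for Tpi-RB. Without the low-fmt libraries they were -0.27 for Ald1-RD, -0.19 for Ald1-RK, 0.11 for Ald1-RM, -0.060 for Gapdh2-RA, -0.077 for Pgi-RC and -0.52 for Tpi-RC. Under median-ratio scaling they were -0.030 for Gapdh2-RA and -0.020 for Tpi-RC. On the poorer food Ald1-RJ became -0.068 with a pseudocount of 0.1 and Eno-RA -0.0023 under median-ratio scaling. The alternatives that leave out single libraries, the transcript fits without the low-fmt libraries, the pseudocount in transcript levels and those of the 12 h test were chosen after seeing the data. With TPM alone the precision of low transcripts, such as Eno-RA or Ldh at ZT20, cannot be stated.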
